A study of Mus musculus with 12 samples.

Results

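The genes described here are 9 components and receptors of the complement system, C1qa, C1qb, C1qc, C3, C3ar1, C5ar1, Cfb, Cfp and C4b, out of 35275 genes counted in the series. They were chosen by name, though with earlier results of these data known, and each was read from the count tables by its Ensembl ID. The RNA came from bone marrow-derived macrophages (BMDMs) of wildtype mice, grown from marrow in RPMI medium with the cytokines M-CSF, IL-4 and IL-10, which all 12 cultures received. For the same 6 days the cells were given DMSO (the solvent control), olaparib (an inhibitor of the DNA repair enzymes PARP1 and PARP2) or MNA (methyl-nicotinamide, a derivative of NAD), with 4 libraries in each group, numbered 1 to 4. By the study's methods, marrow was taken from young mice of either sex; the sex of each library's donor, the strain and the doses given to these cultures were not given in the sources used here. The study asked how the transcriptome of such macrophages changes with olaparib and whether MNA gives a like response, and every library is bulk poly(A) RNA of a whole culture.

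Complement is a set of plasma and cell-surface proteins that tag particles for uptake by phagocytes. In the classical pathway C1q, a hexamer of units made of 1 chain each of C1qa, C1qb and C1qc, binds an immune complex or a dying cell and starts a protease cascade that cleaves C4 (made in the mouse from C4b) and then C3. In the alternative pathway factor B (Cfb) forms the protease that cleaves more C3, and properdin (Cfp) holds that protease together. The released fragments C3a and C5a signal through the receptors C3ar1 and C5ar1. Most plasma complement is made by the liver, whereas C1q and properdin come largely from myeloid cells, and tissue macrophages are known for their high C1q.

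The libraries held 21146291 to 31446849 counts each, with overlapping ranges in the 3 groups. MNA replicate 2 stood apart from the other MNA libraries, so it is given apart below. It lay closer to the DMSO mean than to the mean of MNA 1, 3 and 4 for 7 of 7 members that could be tested, and within the range of the other MNA libraries for 0 of 7. Macrophage markers (Adgre1, Csf1r, Cd68, Lyz2, Fcgr1, Mertk, Itgam and Mrc1) were present in every library, with a summed level of 4472 to 5730 CPM (counts scaled to the same library size) in DMSO, 8919 to 10700 in olaparib, 5655 to 7579 in MNA 1, 3 and 4 and 4106 in MNA 2. Olaparib raised 4 of these 8 markers and lowered 1 against DMSO, where 14.3% of all tested genes rose and 12.8% fell (adjusted p under 0.05). MNA raised 1 and lowered 1, where 16.3% of all tested genes rose and 12.3% fell. Of 5 B cell markers 3 could be tested, and MNA raised all 3 and olaparib 0. Their sum was 0.281 to 1.68 CPM in DMSO, 1.27 to 2.79 in olaparib, 3.30 to 6.83 in MNA 1, 3 and 4 and 1.25 in MNA 2. Markers of dendritic cells summed to 17.5 to 26.7 CPM over all libraries. The 9 neutrophil markers summed to 1.33 to 10.6 CPM outside MNA 4, which held 68.3, and MNA 4 also held the most erythroid marker RNA (54.5 CPM). The part of any of these in the results below was not tested.

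The 5 members whose promoters are shown are those that at least 1 treatment moved and for which RefSeq (GRCm38.p6) gave an entry. With all 12 libraries C1qb rose with MNA, C1qc and C3 rose with both treatments, C3ar1 fell with MNA and C5ar1 rose with olaparib. Of the 9 members 6 had an entry, Cfp being the sixth, and C1qa, Cfb and C4b had none. Each run is the 250 bases before the RefSeq start on the minus strand, written 5′ to 3′, at chr4:136886201-136886450 for C1qb, chr4:136892915-136893164 for C1qc, chr17:57228137-57228386 for C3, chr6:122856158-122856407 for C3ar1 and chr7:16259339-16259588 for C5ar1. The gene spans given below are from GENCODE, and their starts differ from the RefSeq starts except for C3. The C1qc, C3ar1 and C5ar1 runs lie partly within these spans. The part of the C5ar1 run within its span holds the marked TGCTGA. Capitals mark 3 motifs searched on both strands: TGCTGA, the half-site of the MAF factors; GAGGAA, a core bound by PU.1; and TTGCNNAA, bound by C/EBP factors. These motifs were picked after the sequences had been seen.
C1qb: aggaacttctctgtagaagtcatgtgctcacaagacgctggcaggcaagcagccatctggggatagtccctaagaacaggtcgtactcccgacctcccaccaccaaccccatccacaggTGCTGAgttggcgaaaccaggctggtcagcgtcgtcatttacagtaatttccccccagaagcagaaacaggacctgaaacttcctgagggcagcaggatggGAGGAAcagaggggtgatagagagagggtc
C1qc: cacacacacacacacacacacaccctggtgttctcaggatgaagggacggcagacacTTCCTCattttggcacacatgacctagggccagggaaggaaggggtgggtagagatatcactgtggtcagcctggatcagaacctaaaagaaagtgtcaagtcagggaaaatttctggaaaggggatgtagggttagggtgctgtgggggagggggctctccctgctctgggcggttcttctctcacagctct
C3: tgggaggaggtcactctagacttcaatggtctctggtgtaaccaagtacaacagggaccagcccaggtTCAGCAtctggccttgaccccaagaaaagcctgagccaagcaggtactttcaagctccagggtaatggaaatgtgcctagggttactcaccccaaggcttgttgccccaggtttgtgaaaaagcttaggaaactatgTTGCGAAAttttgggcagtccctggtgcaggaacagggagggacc
C3ar1: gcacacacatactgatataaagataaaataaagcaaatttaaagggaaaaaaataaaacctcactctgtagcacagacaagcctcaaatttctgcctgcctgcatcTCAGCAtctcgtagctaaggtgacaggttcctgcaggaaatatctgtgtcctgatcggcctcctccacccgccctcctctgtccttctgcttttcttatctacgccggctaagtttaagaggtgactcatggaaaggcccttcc
C5ar1: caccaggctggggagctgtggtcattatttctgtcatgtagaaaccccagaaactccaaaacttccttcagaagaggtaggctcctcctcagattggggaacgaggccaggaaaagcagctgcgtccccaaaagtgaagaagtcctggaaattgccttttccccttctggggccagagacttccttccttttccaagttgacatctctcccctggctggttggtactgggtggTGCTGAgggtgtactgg
TGCTGA or its complement TCAGCA stood 131 to 126 bases before the start of C1qb, 182 to 177 before C3, 144 to 139 before C3ar1 and 17 to 12 before C5ar1. GAGGAA stood 30 to 25 bases before the start of C1qb, and its complement TTCCTC 193 to 188 before that of C1qc. The C/EBP pattern matched once, as TTGCGAAA, 45 to 38 bases before the start of C3. No 2 matches overlapped. Among 32851 mouse promoters of the same length, 16.1% held TGCTGA, 23.3% GAGGAA and 9.56% TTGCNNAA. These matches describe letters and not binding.

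Levels of different genes were compared as CPM per kilobase of exon. In DMSO the order was Cfp (149 ± 34.3, SD, n = 4), C3ar1 (122 ± 8.40), C1qb (81.1 ± 9.32), C1qc (22.7 ± 3.43), C1qa (18.1 ± 2.85), C3 (4.13 ± 1.22), C5ar1 (0.588 ± 0.145) and C4b (0.108 ± 0.0724). Cfb is left out of this order, since its counts do not give its level (below). The DMSO libraries of Cfp and C3ar1 overlapped, as did those of C1qc and C1qa, and the libraries of the other neighbours in this order did not. In olaparib C1qb reached the level of Cfp, at 202 ± 66.5 against 199 ± 11.0 CPM per kb, with overlapping libraries. In MNA 1, 3 and 4 C1qb was the highest member, at 450.0 to 621 CPM per kb.

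Of the 9 members 7 passed the filter on low counts and were tested among 12849 genes, and Cfb and C4b did not pass. All adjusted p-values are from edgeR's quasi-likelihood test, with Benjamini-Hochberg adjustment over all genes tested, and a gene was called under 0.05. Olaparib raised 4 of the 7 (C1qa, C1qc, C3 and C5ar1), where 14.3% of all tested genes were called higher. It lowered 0 of 7, where 12.8% of all genes were called lower, and at an unadjusted p under 0.05 the count was also 0, by edgeR and by DESeq2. The olaparib libraries lay wholly above the DMSO libraries for 5 of the 7, the 4 called genes and C1qb, against 20.7% of all genes. MNA raised 4 of the 7 (C1qa, C1qb, C1qc and C3), against 16.3% of all genes, and lowered 1 (C3ar1), against 12.3%. Olaparib was above MNA for 2 (C3ar1 and C5ar1), against 10.9% of all genes, and below it for 0, against 10.9%, with 1 below at an unadjusted p under 0.05 by edgeR and by DESeq2. The median log2 fold change of the 7 was 1.32 with olaparib, 1.54 with MNA and 0.18 for olaparib over MNA, beside 0.0038, 0.00020 and -0.013 over all tested genes. Both treatments were compared with the same DMSO libraries.

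MNA 2 bore on these counts, and the common dispersion of the fit was 0.0333 with it and 0.0123 without it. Without it 13023 genes were tested, C4b among them, and 6 of 8 members rose and 1 fell with olaparib, where 22.5% and 21.2% of all genes did. With MNA 4 of 8 rose and 2 fell, where 27.2% and 26.9% of all genes did, and olaparib was above MNA for 4 and below it for 2, where 21.5% and 20.7% of all genes were. C4b passed the filter there only through the DMSO libraries, where it was highest, so its place in these counts supports nothing. In a fit of the MNA and DMSO libraries alone, MNA 2 included, edgeR called 0 of the 7 members in either direction. At an unadjusted p under 0.05 the counts were 4 higher and 1 lower. C1qb, at an unadjusted p of 0.00189 by edgeR, had an adjusted p of 0.064 there. The share of all genes called in that fit is not given here, so the 0 is not read as a result about the members. DESeq2, on all 12 libraries, called 4 higher and 1 lower with MNA.

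**Figure D1:**
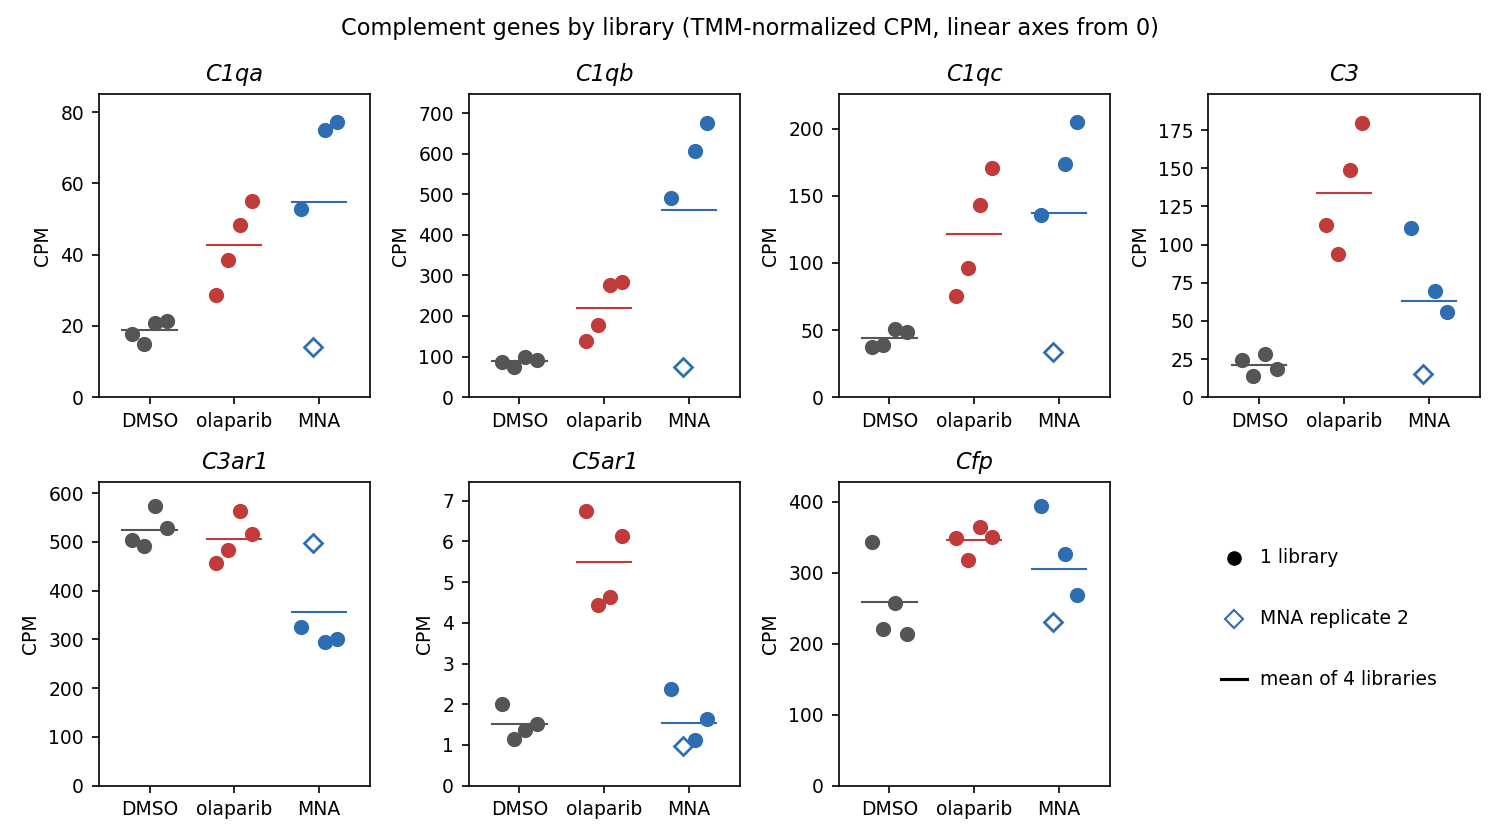
TMM-normalized CPM (vertical axes, linear, from 0) of the 7 tested members in each library of the 3 groups. Points are libraries, horizontal lines are means of 4 libraries, and the open diamond is MNA replicate 2, which lay near the DMSO libraries in every panel. The 3 C1q genes and C3 were above DMSO in all olaparib libraries and in MNA 1, 3 and 4, and C5ar1 in the olaparib libraries.

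**Figure D2:**
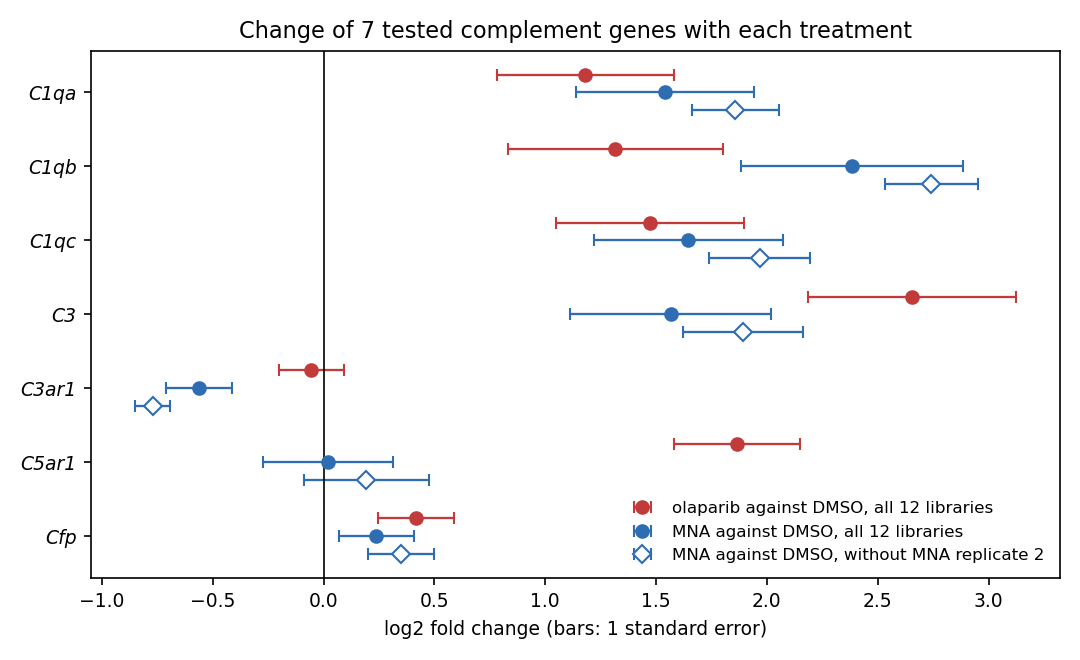
Log2 fold change against DMSO (horizontal axis) of the 7 tested members. Red points are olaparib and blue points MNA with all 12 libraries, open diamonds are MNA without MNA replicate 2, and bars are 1 standard error. C3 and C5ar1 have the largest olaparib values, at 2.65 and 1.87, and C1qb the largest MNA value, at 2.39.

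The 3 chains of C1q rose with MNA, and C1qa and C1qc also with olaparib. Their genes lie side by side on the minus strand of chromosome 4 (GRCm38), with C1qb (ENSMUSG00000036905) at chr4:136880129-136886187, C1qc (ENSMUSG00000036896) at chr4:136889804-136893065 and C1qa (ENSMUSG00000036887) at chr4:136895917-136898803. C1qb, the B chain and the most abundant of the 3, had 85.6, 75.5, 99.1 and 92.8 CPM in DMSO 1 to 4, 139, 177, 277 and 284 in olaparib 1 to 4 and 489.6, 607 and 676 in MNA 1, 3 and 4. MNA 2 had 73.6, just under the lowest DMSO library. The olaparib libraries were thus all above DMSO, and the 3 other MNA libraries all above olaparib. MNA raised C1qb 5.23-fold (log2 2.39 ± 0.50 SE, adjusted p = 0.0142) with all 12 libraries and 6.68-fold (adjusted p = 1.49e-07) without MNA 2, and this call remained with each library left out in turn. With olaparib the log2 change was 1.32 ± 0.48, which missed the threshold (adjusted p = 0.0613); it passed without MNA 2 (log2 1.31 ± 0.19, adjusted p = 1.20e-04) and in DESeq2 (adjusted p = 0.0451). In bulk RNA a change in the share of cells that express a gene and a change in RNA per cell cannot be told apart, here and in every result below.

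C1qa, the A chain, had 17.9, 15.04, 20.9 and 21.4 CPM in DMSO, 28.8, 38.5, 48.2 and 55.2 in olaparib, 52.7, 75.1 and 77.3 in MNA 1, 3 and 4 and 14.1 in MNA 2. Every olaparib library was above every DMSO library, and the olaparib and MNA libraries overlapped. The rise was 2.27-fold with olaparib (log2 1.18 ± 0.40, adjusted p = 0.0459) and 2.91-fold with MNA (log2 1.54 ± 0.40, adjusted p = 0.0215). C1qc, the C chain, had 37.5, 38.7, 50.5 and 48.3 CPM in DMSO, 75.7, 96.5, 143 and 171 in olaparib, 136, 174 and 205 in MNA 1, 3 and 4 and 33.8 in MNA 2. Its libraries were placed as those of C1qa, and it rose 2.77-fold with olaparib (log2 1.47 ± 0.43, adjusted p = 0.0247) and 3.13-fold with MNA (log2 1.65 ± 0.43, adjusted p = 0.0212). Without MNA 2 these changes were called with smaller p, the adjusted p for olaparib being 2.08e-04 (C1qa) and 1.17e-04 (C1qc) and for MNA 3.08e-06 and 7.58e-06. The olaparib call of C1qa was lost without any 1 of DMSO 1 to 4, olaparib 2, 3 or 4, or MNA 1 (adjusted p 0.0557 to 0.118), and that of C1qc without any 1 of DMSO 1 to 4 or olaparib 3 or 4 (0.0504 to 0.0739). The MNA calls of both were lost without any 1 of DMSO 2 or 3 or MNA 1, 3 or 4 (0.0513 to 0.0694 for C1qa, 0.0502 to 0.069 for C1qc).

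Olaparib and MNA were not distinguished for the chains when all 12 libraries were used. The log2 difference, olaparib minus MNA, was -1.07 ± 0.48 for C1qb (adjusted p = 0.132), -0.36 ± 0.39 for C1qa (0.551) and -0.17 ± 0.41 for C1qc (0.806). Without MNA 2 olaparib was lower than MNA for C1qb (log2 -1.43 ± 0.20, adjusted p = 8.19e-05) and C1qa (-0.68 ± 0.19, 0.0107), whereas C1qc missed the threshold (-0.50 ± 0.22, 0.09). With the replicate number as a block as well, C1qc also passed (log2 -0.47 ± 0.11, adjusted p = 0.00348). The summed macrophage markers moved the other way between the treatments, being higher in every olaparib library than in every MNA library. Much of this sum was Lyz2 (mean 6009 CPM in olaparib and 2282 in MNA). Of the 8 markers, 6 were called higher and 1 lower with olaparib than with MNA, where 10.9% of all genes were called each way. Cd68 was lower in every olaparib library (813 to 869 CPM) than in every MNA library (903 to 1285). The part of these markers in the C1q differences was not tested.

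In MNA 1, 3 and 4 the C1q chains also stood in other proportions. This measure was chosen after the values had been seen, so it is a description without a test. Per kilobase of exon, C1qb was 3.41 to 4.05 times the level of C1qc in DMSO, 2.96 to 3.44 times in olaparib and 5.85 to 6.40 times in MNA 1, 3 and 4, with 3.87 in MNA 2. Against C1qa it was 4.14 to 4.80 times in DMSO, 4.41 to 5.50 in olaparib, 7.73 to 8.88 in MNA 1, 3 and 4 and 4.99 in MNA 2. The ratio of C1qc to C1qa covered overlapping ranges, 1.13 to 1.39 in DMSO, 1.35 to 1.67 in olaparib and 1.25 to 1.43 in the 4 MNA libraries. C1qb therefore made up 57.1 to 60.7% of the CPM of the 3 genes in DMSO, 55.7 to 59.2% in olaparib and 70.5 to 72.2% in MNA 1, 3 and 4. None of the 3 genes shared a 31-base word with another annotated gene.

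**Figure D3:**
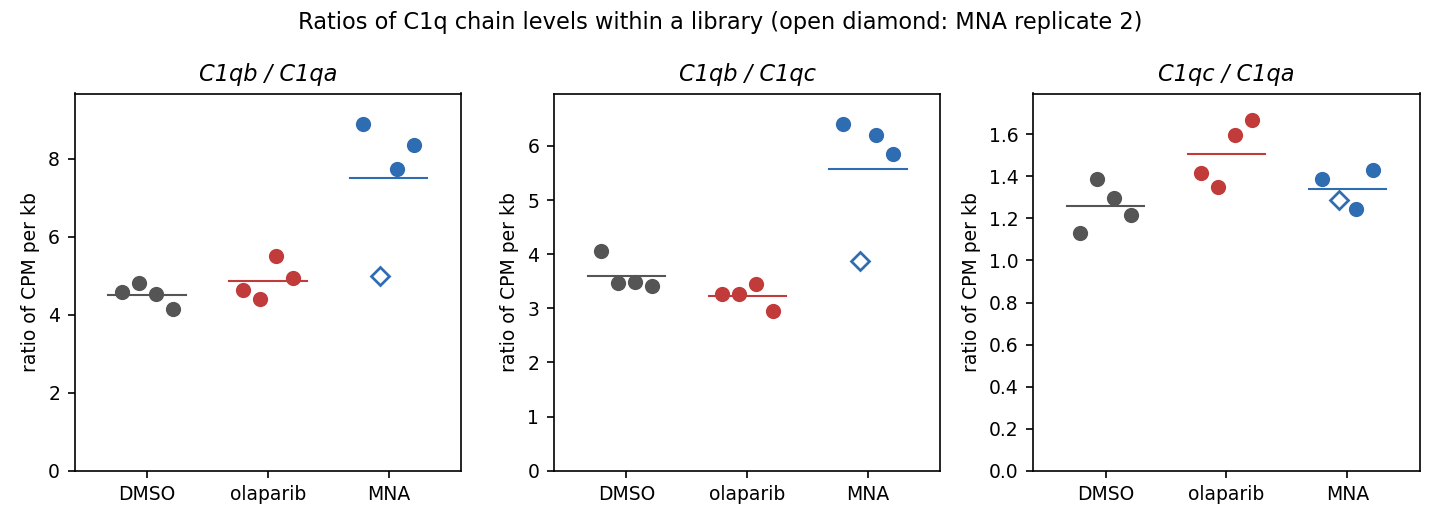
Ratio of the CPM per kb of 2 C1q chains within each library (vertical axes, linear, from 0), by group. Points are libraries, lines are means of 4 libraries, and the open diamond is MNA replicate 2. C1qb over C1qa and C1qb over C1qc were higher in MNA 1, 3 and 4 than in all other libraries, and C1qc over C1qa overlapped between the groups.

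C3 (ENSMUSG00000024164, chr17:57203970-57228136, minus strand), the component at which all complement pathways meet, rose with both treatments. It had 24.6, 14.1, 28.0 and 18.3 CPM in DMSO, 113, 93.5, 149 and 179 in olaparib, 111, 69.4 and 56.0 in MNA 1, 3 and 4 and 15.04 in MNA 2. All olaparib libraries and MNA 1, 3 and 4 were above the DMSO libraries, and MNA 1 lay within the olaparib range. Olaparib raised C3 6.30-fold (log2 2.65 ± 0.47, adjusted p = 0.00255), a call that remained with each library left out in turn, and MNA 2.96-fold (log2 1.57 ± 0.45, adjusted p = 0.0282). The MNA call was lost without any 1 of DMSO 2, 3 or 4 or MNA 1, 3 or 4 (adjusted p 0.0527 to 0.0897) and was stronger without MNA 2 (log2 1.89 ± 0.27, adjusted p = 4.82e-05). Olaparib over MNA was log2 1.09 ± 0.44 (adjusted p = 0.0983) and passed only without MNA 1 (0.037) or without MNA 2 (log2 0.76 ± 0.26, 0.032) among the libraries left out in turn.

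Of the 2 receptors of complement fragments, C3ar1 fell with MNA and C5ar1 rose with olaparib. C3ar1 (ENSMUSG00000040552, chr6:122847138-122856161, minus strand), the receptor of C3a, had 504, 492, 574 and 529 CPM in DMSO and 456, 484, 564 and 516 in olaparib, and these ranges overlapped. MNA 1, 3 and 4 had 326, 296 and 302, below all other libraries, and MNA 2 had 498, within the DMSO range. Olaparib gave a log2 change of -0.055 ± 0.15 (adjusted p = 0.803). MNA lowered C3ar1 1.48-fold (log2 -0.56 ± 0.15, adjusted p = 0.0221), and 1.71-fold without MNA 2 (adjusted p = 2.47e-06). Olaparib was above MNA by log2 0.51 ± 0.15 (adjusted p = 0.0299). Leaving out DMSO 3 or MNA 1, 3 or 4 ended the call against DMSO (adjusted p 0.0591 to 0.0723), and leaving out olaparib 2, 3 or 4 or MNA 1, 3 or 4 ended that between the treatments (0.0555 to 0.0862); without MNA 2 the latter was log2 0.71 ± 0.079 (9.24e-06). Per kilobase, C3ar1 stood at 24.5 to 41.8 times the level of C3 in DMSO, 3.44 to 6.18 times in olaparib, 3.51 to 6.44 times in MNA 1, 3 and 4 and 39.6 times in MNA 2.

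C5ar1 (ENSMUSG00000049130, chr7:16246743-16259540, minus strand), the receptor of C5a, was low in every library, at 27 to 191 counts. It had 2.02, 1.14, 1.37 and 1.52 CPM in DMSO, 6.75, 4.44, 4.63 and 6.13 in olaparib, 2.39, 1.12 and 1.65 in MNA 1, 3 and 4 and 0.967 in MNA 2. Every olaparib library was above every DMSO and MNA library, and the DMSO and MNA libraries overlapped. The rise with olaparib was 3.65-fold (log2 1.87 ± 0.28, adjusted p = 0.0011), and olaparib was 3.60-fold above MNA (log2 1.85 ± 0.28, adjusted p = 0.00101). Both calls remained with each library left out in turn. MNA differed from DMSO by log2 0.020 ± 0.29 (adjusted p = 0.963), and by 0.19 ± 0.28 without MNA 2 (adjusted p = 0.586).

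Cfp (ENSMUSG00000001128, chrX:20925454-20931555, minus strand), which encodes properdin and stabilizes the alternative pathway protease, had overlapping libraries in all 3 groups. It had 344, 221, 257 and 214 CPM in DMSO, 349, 319, 364 and 351 in olaparib, 395, 327 and 269 in MNA 1, 3 and 4 and 231 in MNA 2. DMSO 1 lay within the olaparib range, and the other DMSO libraries below it. With olaparib the log2 change was 0.42 ± 0.17 (adjusted p = 0.0877). Same-numbered olaparib and DMSO libraries deviated together, and with the replicate number as a block Cfp passed the threshold (log2 0.45 ± 0.11, adjusted p = 0.0173), as it did without DMSO 1 (0.0232) or MNA 2 (0.0265). MNA gave log2 0.24 ± 0.17 against DMSO (adjusted p = 0.294), and olaparib over MNA was 0.18 ± 0.17 (adjusted p = 0.493).

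Cfb and C4b, which complete the C3-cleaving enzymes of the alternative and classical pathways, gave few counts. Cfb (ENSMUSG00000090231, chr17:34856374-34862518, minus strand) had 0, 0, 2 and 0 counts in DMSO, 0, 0, 2 and 1 in olaparib and 0 in all 4 MNA libraries, at or under the floor of 3 counts per library, so no difference was detectable. Its exons overlap those of Gm20547 on the same strand: 75.5% of the 31-base words of its transcripts also occur there, and Gm20547 itself had 0 counts in all 12 libraries. Reads in exons of both genes are assigned to neither when reads are counted per gene by position, so these counts do not give the level of Cfb. C4b (ENSMUSG00000073418, chr17:34728380-34743882, minus strand) had 10, 20, 34 and 5 counts in DMSO, 7, 6, 5 and 6 in olaparib, 0, 0 and 2 in MNA 1, 3 and 4 and 10 in MNA 2. The DMSO libraries ranged most widely, and 48.3% of the words of C4b also occur in its near copy C4a, so reads of the 2 genes may be shared or dropped. Without MNA 2 C4b passed the filter, and the changes were called lower with olaparib (log2 -1.43 ± 0.55, adjusted p = 0.0499) and with MNA (adjusted p = 0.00115), where MNA 1, 3 and 4 were at the floor. With the replicate block as well, the olaparib call was lost (adjusted p = 0.0677), and C4b passed the filter there only through the group where it was high.

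Beyond the 9 members, a list of 46 other complement genes held 18 that could be tested, whereas 9 were at 0 in all libraries and 9 more at 3 counts or fewer. A further 9 reached more than 3 but under 10 counts, and Masp2, a protease of the lectin pathway, had 0, 0, 0 and 1 counts in DMSO, 8, 5, 17 and 6 in olaparib and 1, 0, 0 and 0 in MNA 1 to 4. Olaparib raised 7 of the 18 and lowered 0, with 1 lower at an unadjusted p under 0.05 by edgeR and 0 adjusted and 2 unadjusted by DESeq2. MNA raised 3 and lowered 2. Clu, raised by both treatments, passed the filter only through the treated libraries, where it was high, so its place here supports nothing. Olaparib was above MNA for 5 and below it for 0. At an unadjusted p under 0.05 by edgeR it was above for 7, and DESeq2 called 7 higher, with 0 below in each. The median log2 change of the 18 was 0.65, 0.018 and 0.26 in the 3 comparisons, beside 0.0038, 0.00020 and -0.013 over all tested genes, with 14.3%, 16.3% and 10.9% of all genes called higher and 12.8%, 12.3% and 10.9% lower. Without MNA 2 the counts were 8 higher and 1 lower with olaparib, 5 and 5 with MNA, and 10 and 1 for olaparib over MNA, where 22.5% and 21.2%, 27.2% and 26.9%, and 21.5% and 20.7% of all genes were called. Masp1 was among the 10 and passed the filter there only through the olaparib libraries, where it was high, so its place supports nothing. In the fit of MNA and DMSO alone 0 passed in either direction by edgeR, with 5 higher and 3 lower at an unadjusted p under 0.05. The share of all genes called in that fit is not given here, so this 0 is not read as a result about the list. DESeq2 on all 12 libraries called 4 higher and 3 lower with MNA.

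The subunits of the complement receptors CR3 (Itgam with Itgb2) and CR4 (Itgax with Itgb2), which bind a cleaved form of C3 on tagged particles, were among the genes that rose. Itgam had 511, 415, 365 and 467 CPM in DMSO, 1619, 1309, 1385 and 1565 in olaparib, 891, 644 and 720.4 in MNA 1, 3 and 4 and 361 in MNA 2. The olaparib libraries were above all others, by 3.34-fold over DMSO (log2 1.74 ± 0.22, adjusted p = 3.53e-04) and 2.25-fold over MNA (adjusted p = 0.00301). MNA over DMSO missed the threshold with all libraries (log2 0.57 ± 0.21, adjusted p = 0.0596) and passed without MNA 2 (1.22e-04). Of the words of Itgam 68.3% also occur in another gene, nearly all in the overlapping Gm49368. Gm49368 was not among the genes counted in the series, and whether Itgam lost reads to it was not tested, so the level of Itgam is uncertain. Itgb2, the shared beta chain, had 2175 to 2414 CPM in DMSO, 3459.7 to 3831 in olaparib, 4538 to 4722 in MNA 1, 3 and 4 and 2322 in MNA 2, and rose 1.60-fold with olaparib (adjusted p = 0.017) and 1.75-fold with MNA (0.0154), the latter lost without MNA 3 (0.0538) or MNA 4 (0.0522). Itgax rose 1.54-fold with olaparib (adjusted p = 0.00214) and 1.24-fold with MNA (0.0491), and the MNA call was lost without any 1 library other than MNA 2 (0.0538 to 0.125).

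Of the 3 tested genes that restrain complement on the cell's own surface, Cd55, Cd59a and Cr1l, 2 rose with olaparib and differed between the treatments. Cd55, which speeds the decay of the C3-cleaving enzymes, had 1.08, 0.860, 0.704 and 1.33 CPM in DMSO, 2.76, 2.99, 2.57 and 5.78 in olaparib, 0.740, 0.849 and 1.33 in MNA 1, 3 and 4 and 0.645 in MNA 2. It rose 3.54-fold with olaparib (log2 1.82 ± 0.33, adjusted p = 0.00275), and Cd59a, which blocks the membrane attack complex, 1.80-fold (log2 0.85 ± 0.14, adjusted p = 0.00197). Every olaparib library was above every DMSO and MNA library for both, the olaparib over MNA values being log2 1.98 ± 0.33 (adjusted p = 0.00176) and 0.79 ± 0.14 (0.00269), and MNA gave -0.16 ± 0.34 and 0.058 ± 0.14 against DMSO. Cr1l, a surface regulator of C3-cleaving enzymes that was named after its values had been seen, had 83.7, 78.8, 84.6 and 85.2 CPM in DMSO, 73.4, 72.7, 77.6 and 76.7 in olaparib, 66.2, 79.3 and 76.4 in MNA 1, 3 and 4 and 83.2 in MNA 2. All its olaparib libraries lay below all DMSO libraries, and the log2 change was -0.15 ± 0.068 (adjusted p = 0.126), which passed in the fit of the 2 groups alone (0.022), without MNA 1 (0.049) and without MNA 2 with the replicate block (0.0326). With MNA it was -0.12 ± 0.068 (adjusted p = 0.177; 0.0326 without MNA 2). Clu, a secreted inhibitor of the terminal pathway, had 5, 0, 1 and 1 counts in DMSO, 15, 29, 38 and 66 in olaparib, 86, 55 and 61 in MNA 1, 3 and 4 and 11 in MNA 2, and was called higher with olaparib (adjusted p = 0.0052) and with MNA (0.0142). Clu passed the filter on low counts only through the treated libraries, where it was high, so these calls support nothing. Of the words of Cd55 13.0% occur in another gene, mostly its near copy Cd55b.

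Cd93, a lectin-like membrane protein once described as a C1q receptor, fell with MNA. It had 59.0, 46.7, 62.5 and 43.2 CPM in DMSO, 87.9, 65.9, 66.3 and 57.1 in olaparib, 8.18, 1.93 and 2.09 in MNA 1, 3 and 4 and 25.4 in MNA 2. All 4 MNA libraries, MNA 2 included, were below all others, by 5.58-fold against DMSO (log2 -2.48 ± 0.61, adjusted p = 0.0193) and 13.1-fold without MNA 2 (1.47e-06), and the call was lost without MNA 1 (0.0569), MNA 3 (0.0538) or MNA 4 (0.0533). Olaparib over MNA was log2 2.87 ± 0.62 (adjusted p = 0.00716), and 4.10 ± 0.36 (1.36e-06) without MNA 2. Lrp1, an endocytic receptor that works with calreticulin in the uptake of C1q-tagged cells, had 1647 to 2398 CPM in DMSO, 1094 to 1679.7 in olaparib, 891 to 1162 in MNA 1, 3 and 4 and 1886 in MNA 2, which lay within the DMSO range. It fell 1.63-fold with MNA (log2 -0.70 ± 0.22, adjusted p = 0.0349), a call lost without any 1 of DMSO 2, 3 or 4 or MNA 1, 3 or 4 (0.0579 to 0.101). With olaparib Lrp1 missed the threshold (log2 -0.50 ± 0.22, adjusted p = 0.106) unless the replicate block was used (0.0281) or MNA 2 left out (0.0116).

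The remaining genes named from the list were low. C8g, a chain of the membrane attack complex, had 0.703 to 1.58 CPM in DMSO and 1.45 to 2.31 in olaparib, and rose 1.77-fold with olaparib (adjusted p = 0.0332), which the replicate block ended (0.057), as did leaving out any 1 of DMSO 1, 3 or 4 or olaparib 1, 3 or 4 (0.0568 to 0.0903). C8g overlaps Fbxw5 on the other strand, and whether the counts keep the strands apart was not given in the sources used here. C1ra, a protease bound to C1q, had 5.34 to 11.3 CPM in olaparib, 2.28 to 3.26 in MNA 1, 3 and 4 and 4.55 in MNA 2, and was higher with olaparib than with MNA (log2 1.22 ± 0.26, adjusted p = 0.00711), though 59.6% of its words occur in another gene, mostly in C1rb, which had 0 counts. Fcna, a ficolin that starts the lectin pathway, and Masp1, a protease of that pathway, were not called by edgeR in any comparison with all libraries, with log2 changes with olaparib of 1.53 ± 0.56 (adjusted p = 0.0608; 0.014 without MNA 2) and 0.94 ± 0.60 (0.256). DESeq2 called Fcna higher with olaparib than in DMSO (0.0324) and than with MNA (0.029). For olaparib over MNA, Fcna passed without DMSO 3 (0.0187) or MNA 2 (0.0491), and Itgax (0.0505 with all libraries) without MNA 1 (0.0246) or MNA 2 (0.0215). Masp1 (log2 1.34 ± 0.62 with all libraries) passed without MNA 2 (2.13 ± 0.64, adjusted p = 0.0153). Masp1 then passed the filter on low counts only through the olaparib libraries, where it was high. This call therefore supports nothing, also with the replicate block. For MNA over DMSO, C1ra (-0.65 ± 0.26, adjusted p = 0.077) passed without MNA 2 (0.0113), and C8g (0.65 ± 0.26, adjusted p = 0.0728) without DMSO 2 (0.0455) or MNA 2 (0.0438).

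**Figure D4:**
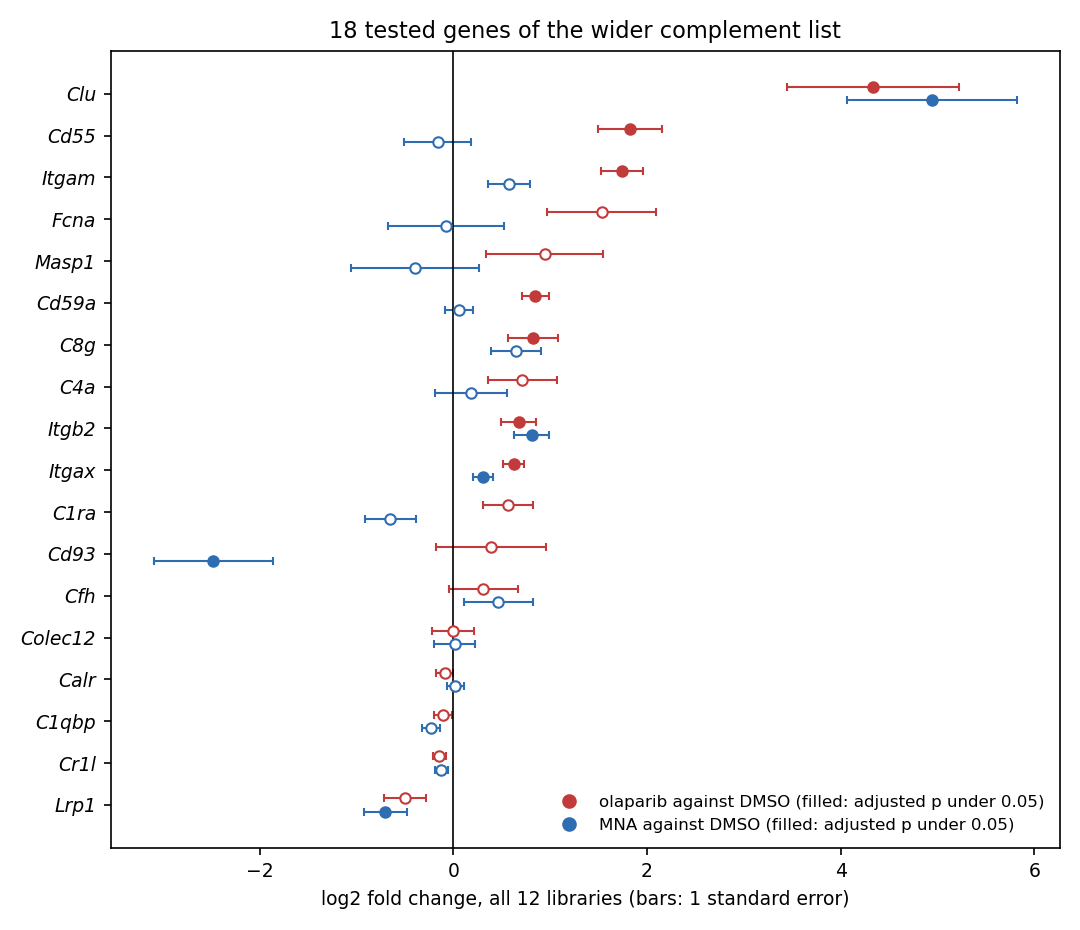
Log2 fold change against DMSO (horizontal axis) of the 18 tested genes of the wider complement list, with all 12 libraries. Red is olaparib and blue MNA, filled points passed an adjusted p of 0.05, and bars are 1 standard error. With olaparib 7 points are filled, all above 0, and with MNA 3 are filled above 0 and 2, Cd93 and Lrp1, below. The size for Clu rests on near-absent DMSO counts, and Clu passed the filter on low counts only through the treated libraries.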

How the data were processed

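RNA of 12 BMDM cultures was sequenced as 150-base single-end reads of stranded mRNA libraries. The authors aligned them with STAR 2.5.2b to GRCm38.p5 and deposited raw read counts per Ensembl gene, 1 table for each library, without normalization. Which strand column of STAR was used was not given in the sources used here.

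Of 35275 genes, 34490 were found in the GENCODE vM21 annotation (GRCm38), which gave symbols, positions and exon lengths. Low genes were removed with filterByExpr (at least 10 counts in enough libraries, total at least 15), and all 12 libraries were fitted together with edgeR 4.0.16 in R 4.3.3 (quasi-likelihood F test, TMM). Standard errors of log2 changes were derived from the F statistic. Levels are TMM-normalized CPM, and CPM per kb uses the union of exons. Counts at or under 3 per library were taken as the floor. Shared 31-base words, promoters and motifs were read with Python 3.11.15. The tests were tried on simulated counts.

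The members and lists were chosen with earlier results of these data known. Named are all 9 members, the 8 genes of the wider list with the smallest p in each comparison, the factors known to act on complement genes, and the 5 genes most like C1q and C3 in pattern. Some of these genes are not reported here. Alternatives were DESeq2 1.42.0 (Wald test), its size factors in edgeR, no filter, the replicate number as a block, the compared groups alone, a threshold of 0.01, and each library left out. Leaving out MNA 2 with MNA and DMSO fitted alone was added after the values had been seen. The study's legend gives 4 donor mice, and the deviations of olaparib 1 to 4 from their group mean correlated across genes with those of DMSO 1 to 4 (Pearson r = 0.227, 0.172, 0.225 and 0.408), so replicate numbers pair these 2 groups. That the groups' libraries come from separate cultures was not stated, and p-values then measure only the spread between these libraries.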

Additional observations from a re-analysis of the deposited data

Results flagged for a closer look

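In each group of 4 libraries, the highest and lowest value of each named complement gene was compared with the other 3 libraries. Of 57 sets of 4 (19 genes in 3 groups), 7 held a library far from the others, where chance alone gives about 1 in 20. For 2 it was MNA replicate 2, with C3ar1 at 498 CPM against 296 to 326 in the other MNA libraries and Itgb2 at 2322 CPM against 4538 to 4722. Cd59a had 5.72 CPM in olaparib 3, against 4.17 to 4.42 in the other olaparib libraries, and 3.02 CPM in MNA 4, against 2.58 to 2.63. Cd55 had 5.78 CPM in olaparib 4, against 2.57 to 2.99. Fcna had 1.20 CPM in olaparib 1, the lowest of its group, against 2.10 to 2.24. Clu had 0.234 CPM in DMSO 1, or 5 counts, against 0 to 0.0335 CPM in the other DMSO libraries.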

How the results depend on the processing

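Size factors as in DESeq2, DESeq2 itself and no filter on low counts kept every count of called members and of called genes of the wider list within 1.5 times its value. By DESeq2, calls that edgeR did not make were those of C1qb and Fcna with olaparib, C1ra, Itgam and Irf8 with MNA, and Fcna, Itgax, Cebpb and Nr1h3 for olaparib over MNA. In the compared groups alone, MNA raised 0 and lowered 0 members and raised 0 and lowered 0 genes of the wider list, olaparib lowered 2 of the wider list, and olaparib was above MNA for 1 member. At a threshold of 0.01 olaparib raised 2 members, MNA raised 0 and lowered 0 members and raised 0 and lowered 0 of the wider list, and olaparib was above MNA for 1 member. With MNA, C1qb at an unadjusted p of 4.37e-04 by edgeR had an adjusted p of 0.0142. Shares of all genes called in each direction are not given here for the settings of this section. Its counts are therefore not read as results about the listed genes. With the replicate block olaparib lowered 1 of the wider list (Lrp1) and changed the calls of Cfp and C8g given above, and no other call of olaparib against DMSO on the genes named. Whether replicate numbers also pair the MNA libraries with the others was less clear. Each number in turn, r was 0.242, 0.114, -0.00938 and 0.277 with DMSO and 0.0696, 0.137, 0.131 and 0.392 with olaparib. Of the MNA and DMSO libraries 5 of 8 correlated best with their own number, and of the olaparib and MNA libraries 6 of 8. For olaparib and DMSO it was 8 of 8. The block moved the calls over all genes from 3673 to 4168 for MNA against DMSO and from 2800 to 2852 for olaparib against MNA. With it C3 (adjusted p = 0.0266), Itgax (0.0323), Cebpb (0.025) and Nr1h3 (0.0453) were called for olaparib over MNA, and Itgam (0.0342) and Irf8 (0.0312) with MNA. Without MNA 2 and with the block, olaparib lowered 2 of the wider list, MNA lowered 2 members and raised 5 and lowered 5 of the wider list, and olaparib was above MNA for 4 members and 9 of the wider list and below it for 3 members and 1 of the wider list. Without MNA 2, with MNA and DMSO alone, MNA lowered 2 members and raised 5 and lowered 4 of the wider list. In each of these the cause was not tested.

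With each library left out, olaparib raised 2 to 6 members and lowered 0 to 1, MNA raised 1 to 4 and lowered 0 to 2, and olaparib was above MNA for 1 to 4 and below it for 0 to 2. On the wider list olaparib raised 6 to 8 and lowered 0 to 1, MNA raised 1 to 5 and lowered 0 to 5, and olaparib was above MNA for 5 to 10 and below it for 0 to 1. Values near 0 turned sign: C5ar1 with MNA, 0.020 with all libraries, was -0.024 with the replicate block and -0.27 to 0.19 with 1 library left out, and C1qc for olaparib over MNA, -0.17, was -0.50 to 0.084. Depth limits Masp2 and most of the wider list, which were at or near the floor. Cfb and C4b also had few counts, but reads that they share with another gene may be dropped, as given above.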

Other observations

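Of the transcription factors known to act on complement genes in macrophages, 6 are given from the same fits. Cebpa rose 1.23-fold with olaparib (adjusted p = 0.0351), a call lost without DMSO 1, 2 or 4 or olaparib 2, 3 or 4 (adjusted p 0.0637 to 0.104).

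MNA lowered 3 of the 6, where 12.3% of all tested genes were called lower. The 3 were Maf (log2 -0.86 ± 0.20, adjusted p = 0.017), which binds the half-site marked in the promoters above, Cebpb (-0.72 ± 0.18, 0.0197) and Nr1h3, the sterol-sensing receptor LXR-alpha (-1.39 ± 0.33, 0.0174). Nr1h3 had 41.3, 38.6, 47.5 and 36.8 CPM in DMSO, 25.7, 28.8, 30.6 and 27.3 in olaparib, 11.0, 11.1 and 8.49 in MNA 1, 3 and 4 and 32.0 in MNA 2. All 4 of its MNA libraries were below all DMSO libraries. Without MNA 2 the change of Nr1h3 was log2 -2.01 ± 0.11 (adjusted p = 1.26e-08). These 3 calls were lost without MNA 1, 3 or 4 (adjusted p 0.0501 to 0.0658), and that of Cebpb also without DMSO 2 (0.0536). Spi1, which encodes PU.1, was not called in any comparison, and Irf8 was lower with olaparib than with MNA (log2 -0.60 ± 0.16, adjusted p = 0.0209). Maf (1.27 ± 0.20, 0.00126) and Cebpa (0.43 ± 0.093, 0.00708) were higher with olaparib than with MNA. The Irf8 call was lost without olaparib 1 (0.0626), MNA 3 (0.0574) or MNA 4 (0.061).

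Over the 12 libraries 4 of the 5 genes most like the mean log2 CPM of the C1q chains, among 9729 outside the complement lists, were Tmem50a (Pearson r = 0.989), Fbxo31 (0.984), Trafd1 (0.984) and Itm2b (0.983), and 4.62% of the 9729 genes had an r above 0.9. Those most like C3 were Idh1 (0.984), Epsti1 (0.982), Ly6e (0.978), Axl (0.976) and Rcbtb2 (0.974), with 2.09% above 0.9. The points share groups and the position of MNA 2, so these values are a description.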
